A study of Mus musculus with 18 samples.

Results

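The collagens are the rod-forming proteins of the extracellular matrix, and their genes are named by type and chain, so that Col1a1 encodes the alpha 1 chain of type I. Collagen genes were taken as the probe sets with exactly 1 gene symbol of that pattern, and of several probe sets for a gene the one with the highest mean over 18 arrays was used. The rule used no difference between groups. It gave 44 of the 22180 genes tested. By the structure of their products 11 are fibrillar, 6 belong to type IV, 3 to the basement membrane zone and 6 to type VI. A further 3 are short chain, 9 are fibril-associated (FACIT), 4 are transmembrane and 2 are of other kinds. All 44 were tested, since no filter on signal was applied.

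RNA came from pancreatic islets of C57BL/6 mice, male and female, aged 16 weeks, in a study of the kinase NIK in beta cells. TRAF3 and TRAF2 are adaptor proteins that restrain NIK, and the knockouts were made by RIP-Cre, in which the rat insulin promoter drives Cre recombinase, acting on loxP-flanked alleles. There were 6 groups of 3 arrays. On a high-fat diet (HFD, 45% of energy from fat for 8 weeks from the age of 8 weeks) these were TRAF3 loxP/loxP RIP-Cre mice, TRAF2 loxP/loxP RIP-Cre mice and floxed littermate controls, and the same 3 genotypes were kept on chow. For the controls, which gene is floxed and whether they lack Cre is not stated. The series text writes TRAF2 for both knockouts, so genotypes follow the sample labels. Nothing in the labels ties a sample to a single animal, so p-values measure only the spread between these samples, which may be technical.

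Values were RMA expression on the log2 scale, where a difference of 1 is a doubling. Array medians lay between 4.80 and 4.96. The endocrine label held on every array, with Ins2 (insulin) between 11.01 and 12.07, Gcg (glucagon) between 12.70 and 13.09 and Iapp (amylin) between 12.59 and 12.86. Exocrine signal was present too and uneven. The mean level of the acinar (digestive enzyme) cell markers ran from 9.22 to 11.69 over the 18 arrays. The transcript of Traf2 averaged 7.32 ± 0.16 in chow TRAF2 knockout islets and 7.18 ± 0.15 in chow control islets (SD, n = 3 each), and its probe set covers the whole transcript, so it does not check the deletion. The arrays differed in how well they matched their group. The mean correlation of an array with the other 2 of its group ran from 0.9655 to 0.9923, lowest in HFD TRAF3 knockout 3 (0.9655) and chow TRAF2 knockout 1 (0.9691). The main values use all 18 arrays, and values without single arrays are given beside many of the results that they moved. In RNA of whole islets, fewer cells of a type and less RNA per cell cannot be told apart.

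Collagen chains wind in threes into a triple helix in the endoplasmic reticulum, after prolyl and lysyl hydroxylation, and are secreted as procollagens. Fibrillar types I, III and V form the tensile fibres of connective tissue and are made by fibroblasts and pancreatic stellate cells. Type IV is the sheet-like scaffold of basement membranes, which in islets lie around the capillaries and the islet border, and types XV and XVIII sit at the outer face of such membranes.

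Of the 44 genes, 4 passed the test, each in 1 of 12 comparisons: Col18a1, Col6a6, Col14a1 and Col13a1. The sequences before the annotated starts of 3 of them follow, since these are the genes on which the results turn. They are RefSeq sequences of build GRCm38.p6, 250 bases upstream of a start, read 5′ to 3′ on the gene's strand, and the table used here has no entry for Col14a1. Col18a1 has 2 annotated starts, far apart in the gene. Capitals mark GGGCGG on either strand, so that CCGCCC is the same motif on the other strand, and TATAAA.
Col18a1, chr10:77166531-77166780, minus strand: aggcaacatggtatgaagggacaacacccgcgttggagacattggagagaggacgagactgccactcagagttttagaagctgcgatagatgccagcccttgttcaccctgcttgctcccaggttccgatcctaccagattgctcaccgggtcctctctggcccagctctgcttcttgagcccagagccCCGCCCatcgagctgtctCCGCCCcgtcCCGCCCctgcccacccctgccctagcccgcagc
Col18a1, chr10:77113706-77113955, minus strand: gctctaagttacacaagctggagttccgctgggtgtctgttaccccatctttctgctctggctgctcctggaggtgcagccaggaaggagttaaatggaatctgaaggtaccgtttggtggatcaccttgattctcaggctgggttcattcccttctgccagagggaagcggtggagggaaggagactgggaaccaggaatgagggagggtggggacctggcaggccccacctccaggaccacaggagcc
Col6a6, chr9:105828086-105828335, minus strand: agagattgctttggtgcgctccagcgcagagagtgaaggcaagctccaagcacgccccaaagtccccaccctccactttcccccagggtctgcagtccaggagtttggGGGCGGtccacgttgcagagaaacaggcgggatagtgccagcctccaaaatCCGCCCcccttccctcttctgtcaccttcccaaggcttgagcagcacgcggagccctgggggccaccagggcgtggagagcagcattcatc
Col13a1, chr10:61979109-61979358, minus strand: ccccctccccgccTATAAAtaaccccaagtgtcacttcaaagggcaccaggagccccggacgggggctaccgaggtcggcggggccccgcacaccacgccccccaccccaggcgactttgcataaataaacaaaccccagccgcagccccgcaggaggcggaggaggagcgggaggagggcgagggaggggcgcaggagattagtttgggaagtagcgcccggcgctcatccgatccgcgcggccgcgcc

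The GC box GGGCGG occurred 3 times before the 1 start of Col18a1 and not before its other start. It occurred 2 times before Col6a6, while Col13a1 held 1 TATAAA and no GC box. Over the family, 35 genes had 38 such windows. GGGCGG was in 22 of the 38 (57.9%), against 32.7% of 32851 windows of the same length for all genes. TATAAA was in 5 (13.2%), against 12.4%. The NF-kB (kB) consensus was in 6 (15.8%), against 7.25%, and in none of the 4 windows shown. A match describes the letters only.

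Few collagen genes passed the test in any comparison. On chow, TRAF3 knockout islets had 1 collagen gene higher (Col18a1) and 1 lower (Col6a6) than controls (limma, adjusted p under 0.05 over all genes), where 11% of all genes passed, 6.33% higher and 4.69% lower. At an unadjusted p under 0.05 there were 4 members, against 24.2% of all genes. In TRAF2 knockout islets, HFD raised 1 gene (Col14a1) relative to chow, where 1.96% of all genes passed and 0.884% were higher. At an unadjusted p under 0.05 there were 2 members, against 14.5% of all genes. Between the knockouts on HFD, 1 gene (Col13a1) was higher in TRAF3 than in TRAF2 knockout islets, where 1.05% of all genes passed and 0.627% were higher. At an unadjusted p under 0.05 there were 3 members, against 11.2% of all genes. These are 4 calls in 528 tests of a member in a comparison, and 40 members had none.

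The other comparisons gave 0 collagen calls with limma. The members at an unadjusted p under 0.05 are named here after their values were seen. For HFD TRAF3 knockout against HFD control, 2.52% of all genes passed, and 1 member (Col14a1) had an unadjusted p under 0.05, against 15% of all genes. For HFD TRAF2 knockout against HFD control, 0.252% passed, and 2 members (Col4a5 and Col13a1) had such a p, against 5.71%. For chow TRAF2 knockout against chow control, 0.298% passed, and 1 member (Col4a6) had such a p, against 6.44%. For both knockouts against control over both diets, 2.80% passed, and 3 members (Col5a2, Col4a6 and Col6a6) had such a p, against 16.1%. The lowest adjusted p of a member in these knockout comparisons was 0.207.

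For HFD against chow, 8.67% of all genes passed in TRAF3 knockouts, where 4 members (Col4a3, Col6a5, Col18a1 and Col26a1) had an unadjusted p under 0.05, against 22% of all genes. In controls 0.884% passed and 4 members (Col1a2, Col5a2, Col6a5 and Col14a1) had such a p, against 15.9%. For chow TRAF3 against chow TRAF2 knockout, 2.01% passed, and 2 members (Col6a6 and Col18a1) had such a p, against 16.2%. The test of whether the TRAF3 knockout difference depended on diet passed for 5.80% of all genes, and 1 member (Col18a1) had such a p, against 21.3%. The same test for TRAF2 passed for 0% of all genes, and 1 member (Col13a1) had such a p, against 2.83%. Comparisons that share a group's arrays are not independent of each other.

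The precision of these arrays bounds most of the differences in signal. Of the members, 13 had a mean under the lowest array median (4.80), and 6 lay under it on every array. For dim signals a narrow interval need not bound the change in transcript. The 95% interval of the log2 difference stayed within 2-fold for between 30 and 43 of the 44 members, depending on the comparison, and for 40 in HFD TRAF3 knockout against HFD control and 40 in HFD TRAF2 knockout against HFD control. The median difference over the members was 0.09 for chow TRAF3 knockout against chow control and 0.14 for HFD against chow in controls, while the medians of all genes lay between -0.02 and 0.02 over the 12 comparisons.

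**Figure D1:**
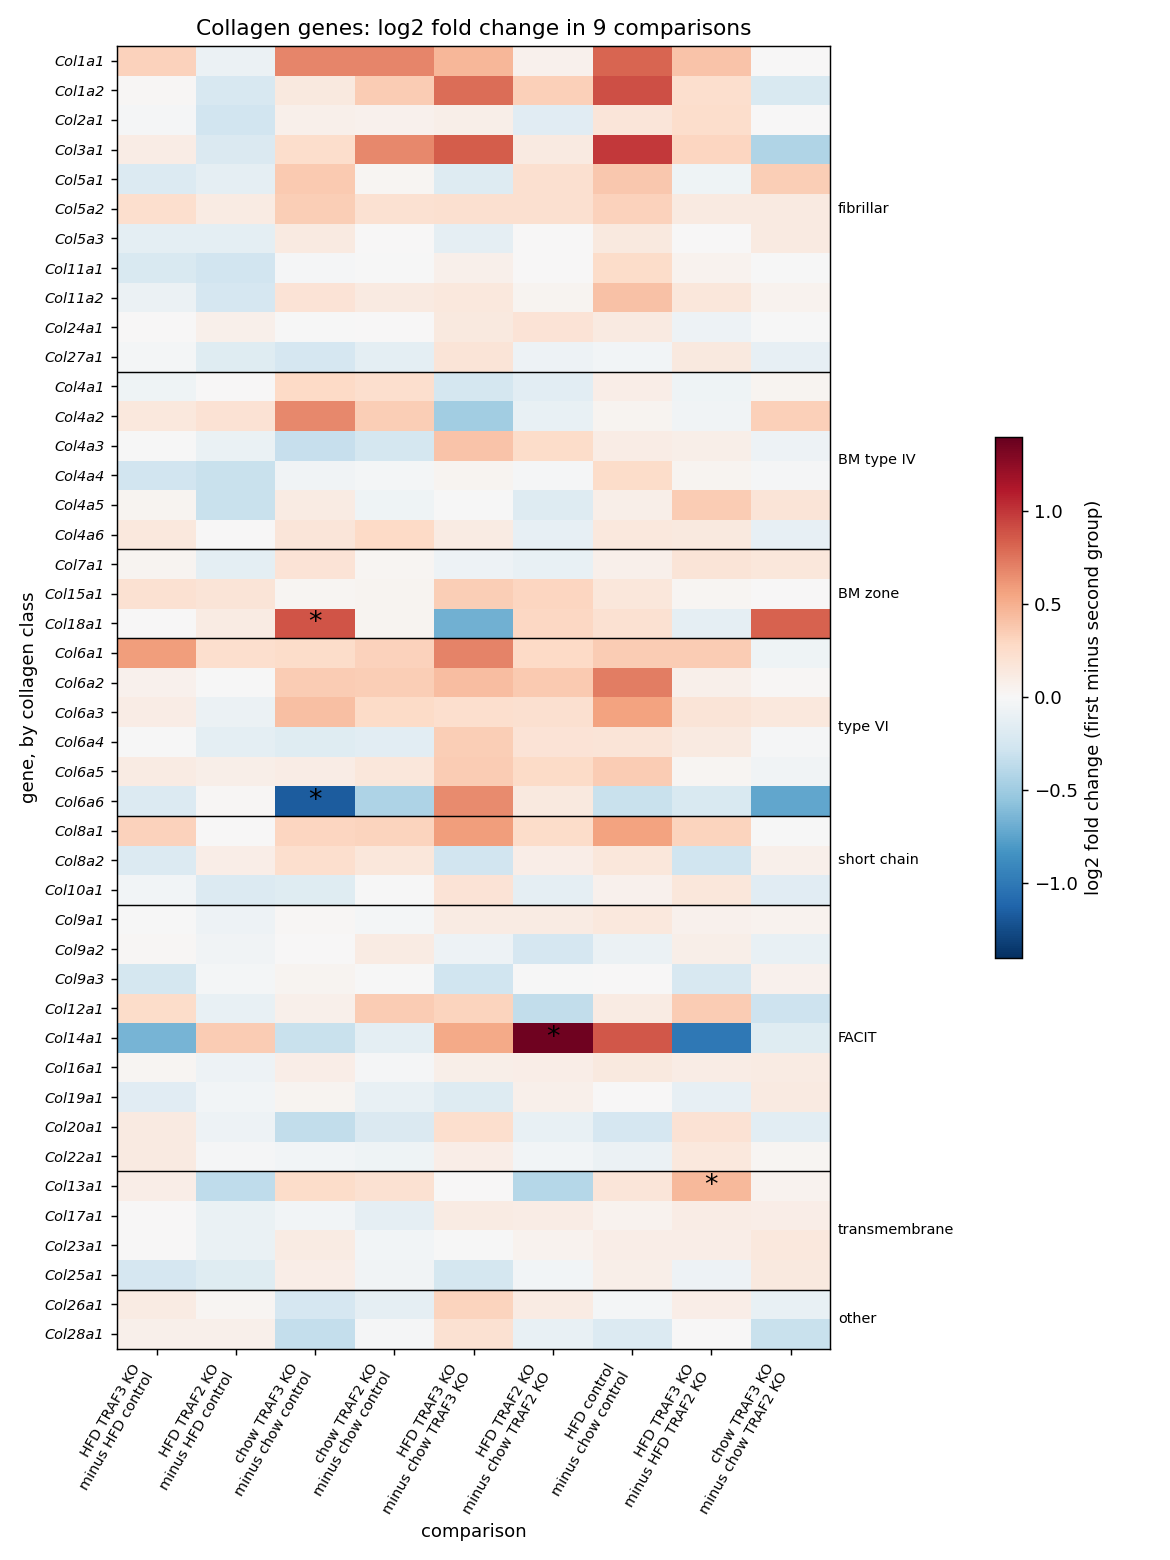
Log2 fold change of each of the 44 collagen genes (rows, by class) in 9 comparisons (columns, the group named before minus the group named after); red is higher and blue lower in the group named before, and an asterisk marks adjusted p under 0.05. The 4 asterisks stand on Col18a1 (0.88), Col6a6 (-1.17), Col14a1 (1.36) and Col13a1 (0.45), and most other cells are pale.

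No fibrillar collagen gene passed in any comparison with limma, and Col1a2 and Col5a2 were the 2 with an unadjusted p under 0.05 in any. Together with Col6a1 and Col6a2, the genes of types I and III had the largest spread between arrays of a group of all members. Col1a1, which encodes the main chain of type I collagen, measured 8.60, 7.26 and 6.55 in HFD TRAF3 knockout, 7.38, 7.12 and 6.71 in HFD TRAF2 knockout and 6.98, 8.01 and 6.46 in HFD control islets. On chow it measured 7.38, 6.53 and 7.11 in TRAF3 knockout, 8.06, 6.82 and 6.13 in TRAF2 knockout and 6.21, 6.23 and 6.52 in control islets. The highest arrays stood in 3 different groups and all HFD groups overlapped, while the chow control arrays lay close together. Col1a1 was 0.82 ± 0.51 (SE) higher on HFD than on chow in controls (adjusted p = 0.463), and 0.39 ± 0.54 without HFD control 2 (adjusted p = 0.773). It was 0.68 ± 0.51 higher in chow TRAF3 knockout than in chow control islets (adjusted p = 0.483).

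Col1a2, the partner chain of type I, measured 7.72, 6.94 and 6.02 in HFD TRAF3 knockout, 6.76, 6.67 and 6.52 in HFD TRAF2 knockout and 6.78, 7.53 and 6.30 in HFD control islets. Chow values were 6.21, 6.12 and 6.00 in TRAF3 knockout, 7.23, 6.02 and 5.71 in TRAF2 knockout and 5.99, 5.89 and 6.04 in control islets. All HFD control arrays lay above all chow control arrays, and the difference of 0.90 ± 0.40 did not pass (adjusted p = 0.282; 0.57 ± 0.42 without HFD control 2, adjusted p = 0.541). In TRAF3 knockouts the same diet difference was 0.78 ± 0.40 (adjusted p = 0.27), and HFD TRAF3 knockout 3 lay among the chow arrays. Without HFD TRAF3 knockout 3 and chow TRAF2 knockout 1 it was 1.22 ± 0.28 and passed (adjusted p = 0.0112). With 1 array left out it did not pass, at 1.22 ± 0.38 without HFD TRAF3 knockout 3 (adjusted p = 0.0528) and 0.37 ± 0.39 without HFD TRAF3 knockout 1 (adjusted p = 0.669).

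Col3a1, the sole chain of type III collagen in soft tissue, followed the same arrays. It measured 8.08, 6.75 and 5.47 in HFD TRAF3 knockout, 6.84, 6.22 and 6.35 in HFD TRAF2 knockout and 6.60, 7.50 and 5.90 in HFD control islets. On chow it measured 6.15, 5.75 and 5.86 in TRAF3 knockout, 7.50, 5.76 and 5.78 in TRAF2 knockout and 5.80, 5.33 and 5.89 in control islets. The 3 HFD TRAF3 knockout arrays spanned both the highest level of the 18 arrays and 1 of the lowest. HFD against chow gave 0.99 ± 0.56 in controls (adjusted p = 0.41), 0.13 ± 0.56 in TRAF2 knockouts (adjusted p = 0.958) and 0.85 ± 0.56 in TRAF3 knockouts (adjusted p = 0.422). The last value was 1.49 ± 0.41 without the 2 arrays named above (adjusted p = 0.0263). It was 1.49 ± 0.52 without HFD TRAF3 knockout 3 alone (adjusted p = 0.0799) and 0.19 ± 0.52 without HFD TRAF3 knockout 1 (adjusted p = 0.89), and in controls 0.57 ± 0.60 without HFD control 2 (adjusted p = 0.686).

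For HFD against chow in controls, the other 8 fibrillar genes (types II, V, XI, XXIV and XXVII and their chains) stayed nearer to 0 than Col1a1, Col1a2 and Col3a1. This did not hold in every comparison. In chow TRAF3 knockout against chow control, Col5a1 (0.37) differed more than Col1a2 (0.14) and Col3a1 (0.25), though less than Col1a1 (0.68). Over the whole class and all comparisons other than the interactions, differences ran from -0.42 to 0.99, and the lowest adjusted p was 0.173, for Col5a2 in chow TRAF3 knockout against chow control. Col5a2, a chain of the type V collagen that seeds fibrils, was picked out after its values were seen. It measured 5.49, 5.42 and 5.49 in chow TRAF3 knockout islets, all above the 4.86, 5.20 and 5.31 of chow control islets, a difference of 0.34 ± 0.15. For HFD against chow in controls, 10 of the 11 fibrillar differences were positive with a median of 0.32, beside 50.9% of all genes positive and a median of 0.01. The class median for the same diet contrast was 0.15 in TRAF3 knockouts and 0.06 in TRAF2 knockouts. Against controls it was -0.02 in HFD TRAF3 knockout, -0.17 in HFD TRAF2 knockout, 0.14 in chow TRAF3 knockout and 0.06 in chow TRAF2 knockout islets. Leaving out 1 array at a time moved these class medians. For HFD against chow they lay between -0.01 and 0.23 in TRAF3 knockouts, -0.04 and 0.18 in TRAF2 knockouts and 0.20 and 0.41 in controls. Against HFD control they lay between -0.19 and 0.08 in TRAF3 knockouts and -0.20 and 0.00 in TRAF2 knockouts. Against chow control they lay between 0.06 and 0.18 in TRAF3 knockouts and -0.03 and 0.16 in TRAF2 knockouts. So 4 of these 7 medians changed sign with 1 array left out.

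**Figure D2:**
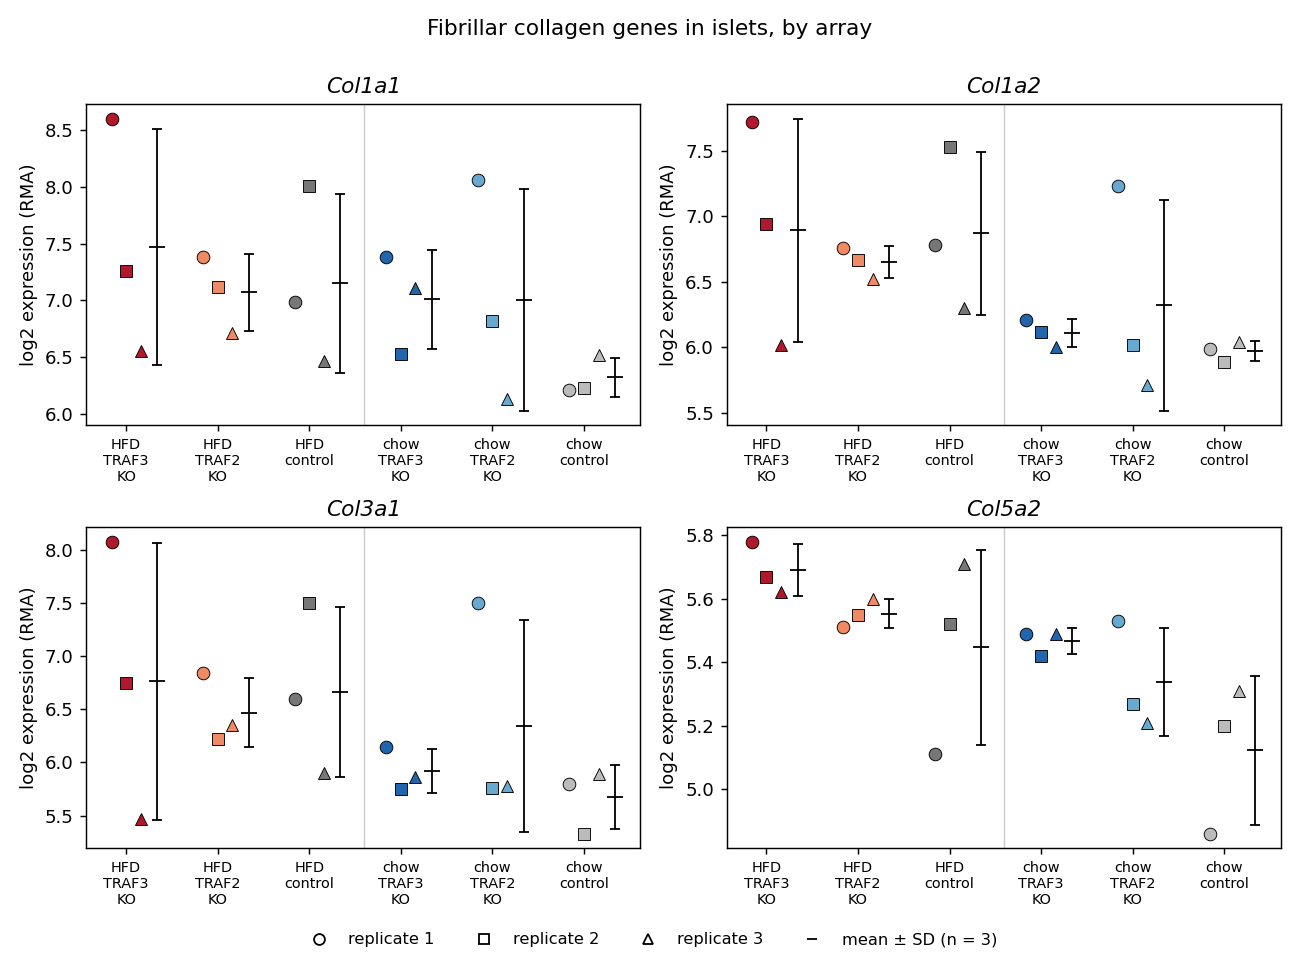
Log2 expression of Col1a1, Col1a2, Col3a1 and Col5a2 on each array, by group, with replicates 1 to 3 as circle, square and triangle and the mean ± SD (n = 3) beside them. HFD TRAF3 knockout 1 and chow TRAF2 knockout 1 stand high for types I and III (Col3a1 8.08 and 7.50), while the chow control arrays of Col3a1 stay between 5.33 and 5.89.

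Type IV collagen genes did not pass in any comparison with limma either, and 3 of the 6 (Col4a3, Col4a5 and Col4a6) had an unadjusted p under 0.05 in some comparison. Col4a1, the alpha 1 chain of the main basement membrane scaffold, measured 6.92, 6.82 and 6.02 in HFD TRAF3 knockout, 6.64, 6.72 and 6.58 in HFD TRAF2 knockout and 6.88, 6.82 and 6.24 in HFD control islets. On chow it measured 6.90, 6.76 and 6.87 in TRAF3 knockout, 7.26, 6.49 and 6.65 in TRAF2 knockout and 6.47, 6.58 and 6.63 in control islets. On chow all TRAF3 knockout arrays lay above all controls, by 0.28 ± 0.23 on average (adjusted p = 0.532). The groups overlapped on HFD, where the difference was -0.06 ± 0.23 (adjusted p = 0.946).

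Col4a2, the alpha 2 chain, is transcribed from the opposite strand, and the RefSeq starts of Col4a1 and Col4a2 lie within 22 bases at chr8:11312805-11312826 (GRCm38.p6). It measured 6.81, 6.76 and 5.47 in HFD TRAF3 knockout, 6.45, 6.55 and 6.20 in HFD TRAF2 knockout and 6.55, 6.51 and 5.54 in HFD control islets. Its chow values were 6.86, 6.75 and 6.90 in TRAF3 knockout, 7.28, 5.99 and 6.24 in TRAF2 knockout and 6.39, 6.18 and 5.93 in control islets. The chow TRAF3 knockout arrays were again all above the controls. The difference of 0.67 ± 0.36 did not pass (adjusted p = 0.284), although it did when only the 6 arrays compared were fitted (0.67 ± 0.15, adjusted p = 0.0322). It was 0.15 ± 0.36 on HFD (adjusted p = 0.908), and the change of this difference with diet was -0.53 ± 0.51 (adjusted p = 0.634). Both moved with single arrays. Without HFD TRAF3 knockout 3 the HFD difference was 0.59 ± 0.33 (adjusted p = 0.379) and the change with diet -0.09 ± 0.44 (adjusted p = 0.932), while without HFD control 3 they were -0.19 ± 0.37 (adjusted p = 0.908) and -0.86 ± 0.50 (adjusted p = 0.4).

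Col4a3 to Col4a6, the chains of specialised membranes such as that of the kidney filter, were dim, with values between 4.04 and 5.21. Over the class and the comparisons other than the interactions, differences ran from -0.49 to 0.67, and the lowest adjusted p was 0.147, for Col4a3 on HFD against chow in TRAF3 knockouts. The class median for HFD against chow was 0.02 in TRAF3 knockouts, -0.11 in TRAF2 knockouts and 0.09 in controls. Against chow control it was 0.15 in TRAF3 knockouts and 0.11 in TRAF2 knockouts. Against HFD control it was 0.01 in TRAF3 knockouts and -0.05 in TRAF2 knockouts. With 1 array left out at a time, the HFD against chow median lay between -0.01 and 0.10 in TRAF3 knockouts, -0.15 and 0.04 in TRAF2 knockouts and 0.04 and 0.16 in controls. Against chow control it lay between 0.09 and 0.19 in TRAF3 knockouts and -0.04 and 0.15 in TRAF2 knockouts, and against HFD control between -0.09 and 0.06 in TRAF3 knockouts and -0.17 and 0.01 in TRAF2 knockouts.

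Among the collagens that sit beside basement membranes, Col18a1 was higher in chow TRAF3 knockout islets. Col18a1 encodes type XVIII collagen, a heparan sulfate proteoglycan whose C-terminal fragment is endostatin, an inhibitor of vessel growth. It measured 5.93, 5.67 and 6.13 in chow TRAF3 knockout islets and 4.70, 5.03 and 5.36 in chow control islets, so that the groups did not overlap. The difference was 0.88 ± 0.22, or 1.84-fold (adjusted p = 0.0177). The chow control values lay near the array medians (4.80 to 4.96), so the size of this difference rests on dim signals. Chow TRAF2 knockout islets measured 5.60, 4.84 and 4.78, level with the controls (0.04 ± 0.22, adjusted p = 1). Chow TRAF3 knockout islets were 0.83 ± 0.22 above chow TRAF2 knockout islets, just short of the threshold (adjusted p = 0.0604), and this passed without the 2 arrays of low correlation (1.10 ± 0.20, adjusted p = 0.00393).

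On HFD the difference in Col18a1 between TRAF3 knockout and control islets was 0.00 ± 0.22 (adjusted p = 0.998). Values were 5.10, 5.38 and 5.24 in HFD TRAF3 knockout, 5.32, 5.42 and 5.37 in HFD TRAF2 knockout and 5.47, 5.35 and 4.91 in HFD control islets. Within TRAF3 knockouts, HFD was -0.67 ± 0.22 relative to chow (adjusted p = 0.0708), with no overlap. The test of the diet dependence itself gave -0.88 ± 0.31 and did not pass (adjusted p = 0.105), but did without the 2 arrays (adjusted p = 0.0492). The chow call was lost without chow TRAF3 knockout 1 (adjusted p = 0.061), chow TRAF3 knockout 3 (0.098) or chow control 1 (0.0922).

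Markers of other cells were read in the same comparison, in which 6.33% of all genes passed higher and 4.69% lower. Of 8 ductal markers 1 passed higher in chow TRAF3 knockout islets (Anxa3, 2.71 ± 0.53, adjusted p = 0.00517), and the mean level of the list was between 8.27 and 9.03 there and between 6.94 and 8.18 in chow control islets. Of 12 macrophage markers 4 passed higher, with list means of 7.41 to 7.61 in chow TRAF3 knockout and 6.51 to 6.68 in chow control islets. Of 14 endothelial markers 1 passed higher (Egfl7, 0.72 ± 0.22, adjusted p = 0.0489), with list means of 7.80 to 8.05 in chow TRAF3 knockout and 7.58 to 7.85 in chow control islets. Of 10 beta cell markers 8 passed lower, with list means of 9.63 to 10.39 in chow TRAF3 knockout and 11.07 to 11.57 in chow control islets. With the ductal list mean as a covariate the Col18a1 difference was 0.60 ± 0.25 (adjusted p = 0.247), and with the macrophage list mean it was 0.49 ± 0.23 (adjusted p = 0.181), so neither kept the call. The call was kept in 12 of 14 alternative settings, not counting single arrays left out. Both list means separated the groups compared, so these fits cannot tell cell makeup from genotype. The part of these cells in the difference was not tested.

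Col15a1 encodes type XV collagen, the close relative of type XVIII that links basement membranes to nearby fibrils. It measured 6.66, 6.21 and 5.11 in HFD TRAF3 knockout, 5.94, 6.08 and 5.87 in HFD TRAF2 knockout and 6.18, 6.08 and 5.09 in HFD control islets. Among chow islets it measured 5.63, 5.54 and 5.79 in TRAF3 knockout, 6.11, 5.28 and 5.58 in TRAF2 knockout and 6.06, 5.53 and 5.27 in control islets. Every group overlapped another. The TRAF3 knockout difference from controls was 0.21 ± 0.35 on HFD (adjusted p = 0.839; 0.66 ± 0.31 without HFD TRAF3 knockout 3, adjusted p = 0.286) and 0.03 ± 0.35 on chow (adjusted p = 0.974). Col7a1, the anchoring fibril collagen of skin, was not called in any comparison.

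**Figure D3:**
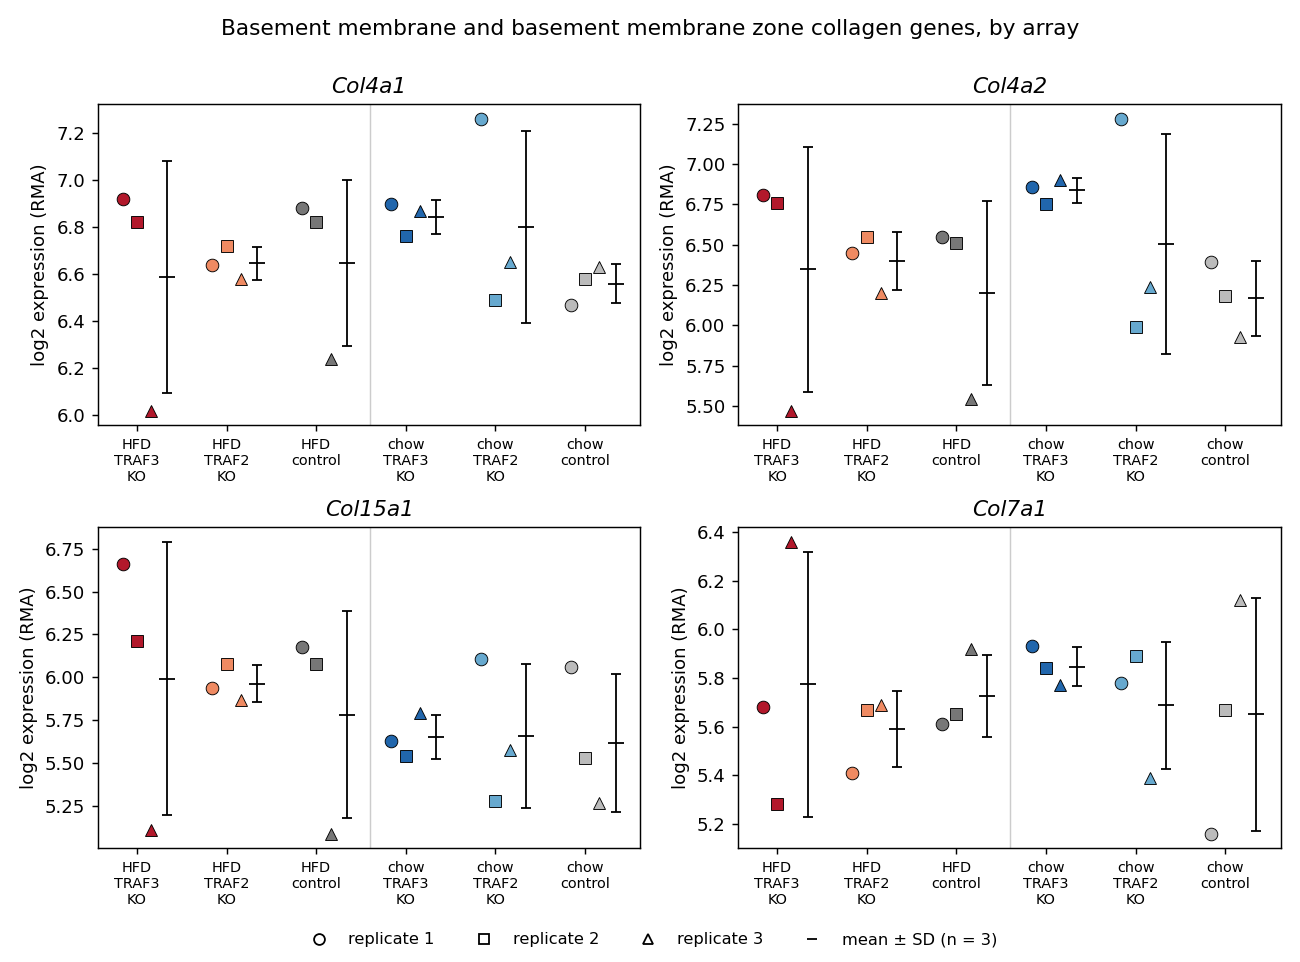
Log2 expression of Col4a1, Col4a2, Col15a1 and Col7a1 on each array, by group, with replicates as different symbols and the mean ± SD (n = 3) beside them. HFD TRAF3 knockout 3 and HFD control 3 lie lowest for Col4a2 (5.47 and 5.54) and for Col15a1 (5.11 and 5.09).

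Type VI collagen forms beaded microfilaments around cells, from the alpha 1 and alpha 2 chains with alpha 3 or 1 of its relatives alpha 4 to alpha 6. Col6a6, the alpha 6 chain, was lower in chow TRAF3 knockout islets. It measured 6.96, 6.87 and 6.27 there and 8.41, 7.75 and 7.45 in chow control islets, without overlap. The difference was -1.17 ± 0.33 (adjusted p = 0.0333), or 2.25-fold lower. Chow TRAF2 knockout islets measured 7.15, 7.45 and 7.71, with a mean in between, and the difference of TRAF3 from TRAF2 knockouts did not pass (-0.73 ± 0.33, adjusted p = 0.283).

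On HFD, Col6a6 measured 7.71, 7.73 and 6.66 in TRAF3 knockout, 7.56, 7.67 and 7.50 in TRAF2 knockout and 8.05, 7.74 and 6.88 in control islets. These overlapped, and the TRAF3 knockout difference was -0.19 ± 0.33 (adjusted p = 0.853). The change of the difference with diet was 0.98 ± 0.47 (adjusted p = 0.242). The chow call was lost without chow TRAF3 knockout 1 (adjusted p = 0.0594), chow TRAF3 knockout 3 (0.171), chow control 1 (0.162) or chow control 2 (0.065). With the ductal list mean as a covariate the chow difference was -0.48 ± 0.29 (adjusted p = 0.481). That list mean separated the groups compared, so this fit cannot tell cell makeup from genotype. The call was kept in 14 of 15 alternative settings, not counting single arrays left out.

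Col6a1, which encodes the alpha 1 chain, was not called. It measured 8.69, 8.04 and 7.02 in HFD TRAF3 knockout, 7.73, 7.56 and 7.41 in HFD TRAF2 knockout and 7.71, 7.81 and 6.47 in HFD control islets. Chow islets had 7.41, 6.96 and 7.31 in TRAF3 knockout, 7.98, 6.99 and 6.90 in TRAF2 knockout and 7.15, 6.65 and 7.11 in control islets. HFD TRAF3 knockout 1 was the highest of the 18 arrays, as for types I and III. In TRAF3 knockouts HFD was 0.69 ± 0.40 above chow (adjusted p = 0.346), and 1.14 ± 0.33 without the 2 arrays of low correlation (adjusted p = 0.0341). It did not pass with 1 array left out, at 1.14 ± 0.38 without HFD TRAF3 knockout 3 (adjusted p = 0.0666) and 0.30 ± 0.40 without HFD TRAF3 knockout 1 (adjusted p = 0.742). Over type VI, in the comparisons other than the interactions, differences other than the call ran from -0.73 (Col6a6) to 0.72 (Col6a2). The median of the class for HFD against chow was 0.39 in TRAF3 knockouts, 0.24 in TRAF2 knockouts and 0.35 in controls.

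Among FACIT collagens, which decorate fibril surfaces, Col14a1 was higher on HFD. Its product, type XIV collagen, binds decorin and limits fibril growth in tendon and skin. In TRAF2 knockouts it measured 6.56, 6.48 and 6.22 on HFD and 4.87, 5.01 and 5.29 on chow. The difference was 1.36 ± 0.25, or 2.57-fold (adjusted p = 0.0102), with no overlap between diets. The chow values lay near the array medians (4.80 to 4.96), so the size of this difference rests on dim signals. In controls it measured 6.07, 6.63 and 5.49 on HFD and 5.35, 5.10 and 5.13 on chow, again without overlap, a difference of 0.87 ± 0.25 that did not pass (adjusted p = 0.102). In TRAF3 knockouts it measured 5.48, 5.85 and 4.92 on HFD and 4.99, 4.87 and 4.81 on chow, which overlapped (0.53 ± 0.25, adjusted p = 0.229). This was 0.31 ± 0.26 without HFD TRAF3 knockout 2 (adjusted p = 0.556) and 0.78 ± 0.25 without HFD TRAF3 knockout 3 (adjusted p = 0.0553). The diet difference in controls passed without HFD control 3 (1.16 ± 0.23, adjusted p = 0.0479). It also passed without the 2 arrays of low correlation (0.87 ± 0.22, adjusted p = 0.0467). Without HFD control 2 it was 0.59 ± 0.24 and did not pass (adjusted p = 0.251).

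The diet difference of Col14a1 was not shown to depend on genotype: its change was -0.35 ± 0.35 with the loss of TRAF3 (adjusted p = 0.653) and 0.49 ± 0.35 with the loss of TRAF2 (adjusted p = 1). On HFD, TRAF3 knockout islets lay below TRAF2 knockout islets without overlap (-1.0 ± 0.25, adjusted p = 0.0728). The TRAF2 knockout diet call was lost without HFD TRAF2 knockout 2 (adjusted p = 0.0504). The other 8 FACIT genes had no call.

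Some stromal and macrophage markers moved with Col14a1, in a comparison where 1.96% of all genes passed and 0.884% passed higher. In TRAF2 knockouts HFD raised 3 of 15 stellate, fibroblast and pericyte markers, among them Acta2 (smooth muscle actin, 3.52 ± 0.39, adjusted p = 0.00027) and Tagln (2.13 ± 0.27, adjusted p = 0.000615). The list mean was 7.27 to 7.36 in HFD TRAF2 knockout and 6.09 to 6.84 in chow TRAF2 knockout islets. Of 12 macrophage markers 4 passed higher, Mrc1 by 2.94 ± 0.43 (adjusted p = 0.00229), with list means of 8.41 to 8.49 on HFD and 6.82 to 7.97 on chow. With the stromal list mean as a covariate the Col14a1 difference was 0.77 ± 0.26 (adjusted p = 0.0884), and with the macrophage list mean 0.89 ± 0.32 (adjusted p = 0.107), so the call was lost with each. It was kept in 12 of 14 alternative settings, not counting single arrays left out. Both list means separated the diets in TRAF2 knockouts, so these fits cannot tell cell makeup from diet. The part of these cells in the difference was not tested.

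Of the transmembrane collagens, which are anchored in the plasma membrane and can be shed, Col13a1 was higher in TRAF3 than in TRAF2 knockout islets on HFD. Type XIII collagen is found at cell-matrix contacts and at the neuromuscular junction. It measured 5.77, 5.85 and 5.91 in HFD TRAF3 knockout, 5.41, 5.36 and 5.43 in HFD TRAF2 knockout and 5.85, 5.61 and 5.81 in HFD control islets. Chow values of Col13a1 were 5.77, 5.81 and 5.96 in TRAF3 knockout, 5.81, 5.78 and 5.79 in TRAF2 knockout and 5.48, 5.66 and 5.61 in control islets. The HFD TRAF2 knockout arrays were the lowest 3 of the 18.

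The difference between the knockouts on HFD was 0.45 ± 0.10, or 1.36-fold (adjusted p = 0.045). HFD TRAF3 knockout islets differed from HFD controls by 0.09, and by 0.02 to 0.14 with 1 array left out, and did not pass. HFD TRAF2 knockout islets differed from HFD controls by -0.36 ± 0.10 (adjusted p = 0.312) and from chow TRAF2 knockouts by -0.40 ± 0.10 (adjusted p = 0.054). The change of the TRAF2 difference with diet was -0.57 ± 0.14 (adjusted p = 1). Col13a1 had the smallest spread within groups of all members (pooled SD 0.08), so that the call rests on a small difference. It was lost when each array was centred on its median (0.39 ± 0.11, adjusted p = 0.124) and when single arrays were left out, except 4 of the 18 (chow TRAF2 knockout 1, chow control 1, and HFD control 2 or 3). The call was kept in only 5 of 14 alternative settings, not counting single arrays left out. The other 3 transmembrane, the 3 short chain and the 2 remaining collagens were not called, and their differences ran from -0.33 (Col28a1) to 0.58 (Col8a1).

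**Figure D4:**
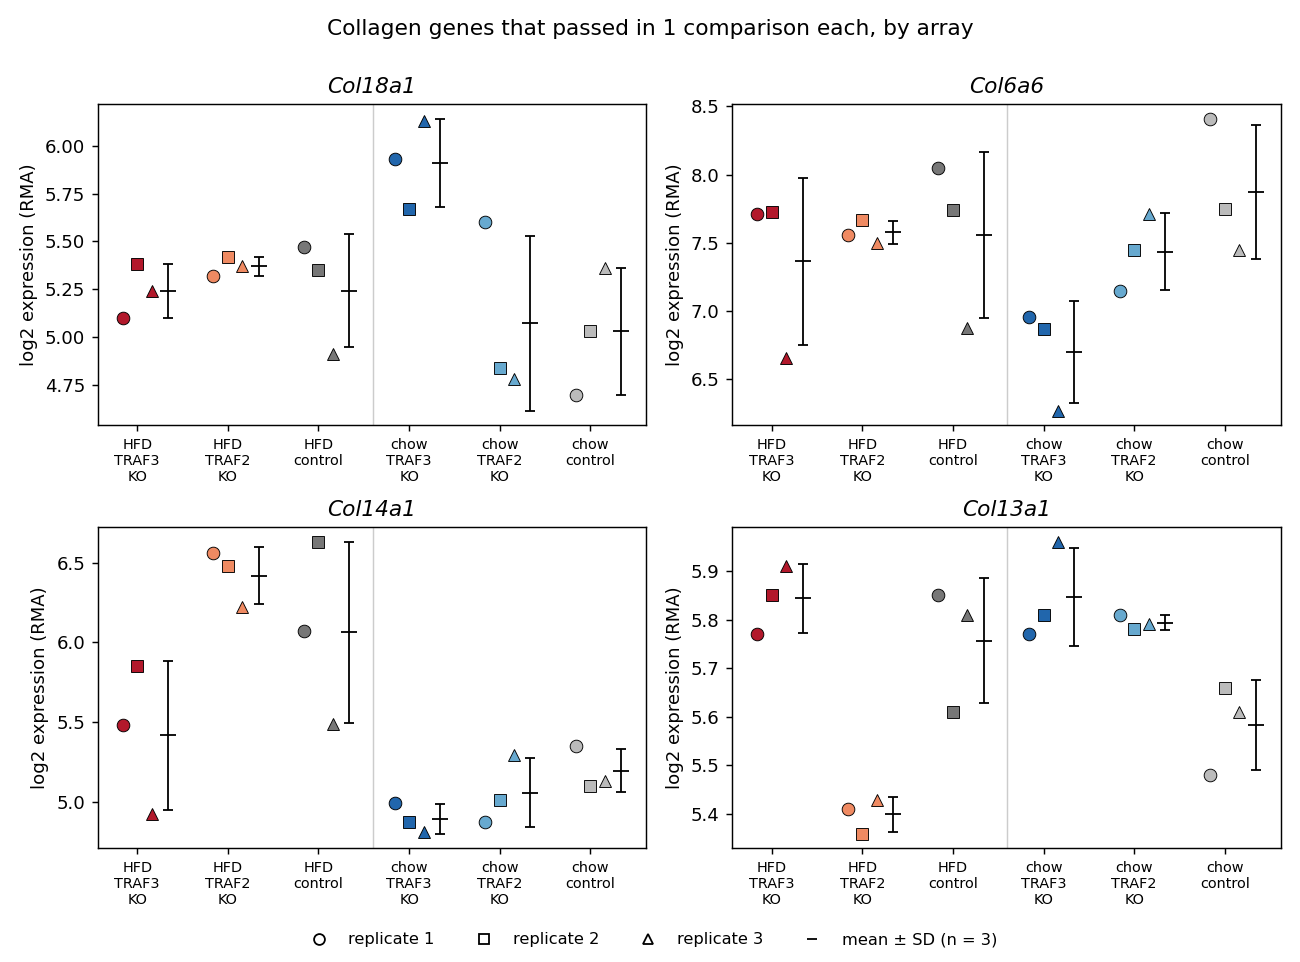
Log2 expression of Col18a1, Col6a6, Col14a1 and Col13a1 on each array, by group, with replicates as different symbols and the mean ± SD (n = 3) beside them; each panel has its own axis. Chow TRAF3 knockout arrays are high for Col18a1 (5.67 to 6.13) and low for Col6a6 (6.27 to 6.96), and HFD TRAF2 knockout arrays are high for Col14a1 (6.22 to 6.56) and low for Col13a1 (5.36 to 5.43).

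For several stromal collagens the spread between arrays of 1 group matched the differences between groups. The pooled SD within groups was 0.77 for Col3a1, 0.71 for Col1a1, 0.59 for Col6a2, 0.55 for Col6a1 and 0.54 for Col1a2, and the median was 0.22 over the members and 0.22 over all genes. HFD TRAF3 knockout 3 lay farthest below its group mean for 10 members, among them Col3a1 (-1.29), Col1a1 (-0.92) and Col4a2 (-0.88). It lay farthest above for 12 others, such as Col9a2 (0.62) and Col7a1 (0.59). HFD TRAF3 knockout 1 lay farthest above for Col3a1 (1.31), Col6a2 (1.20) and Col1a1 (1.13), and chow TRAF2 knockout 1 for Col1a2 (0.91) and Col4a2 (0.78).

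Chains that assemble with each other were high and low on the same arrays within groups. Over the 18 deviations from the group mean, Col1a1 and Col1a2 had Pearson's r = 0.95 and Spearman's rho = 0.88 (permutation within groups, two-sided, p = 0.00064 and 0.00054, adjusted over 4 relations 0.00256 and 0.00216). Col4a1 and Col4a2 had r = 0.95 and rho = 0.87 (permutation p = 0.0116 and 0.0194, adjusted 0.0168 and 0.0194). Col6a1 and Col6a2 had r = 0.84 and rho = 0.74 (permutation p = 0.0126 and 0.0175, adjusted 0.0168 and 0.0194). Between types, Col1a1 and Col4a1 had r = 0.79 and rho = 0.73 (permutation p = 0.0294 and 0.0143, adjusted 0.0294 and 0.0194), and whether these values differ from each other was not tested. Without the 2 arrays farthest from the median, r was 0.90, 0.90, 0.74 and 0.68 for these pairs in the same order. All genes of an array share its RNA and its normalization.

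**Figure D5:**
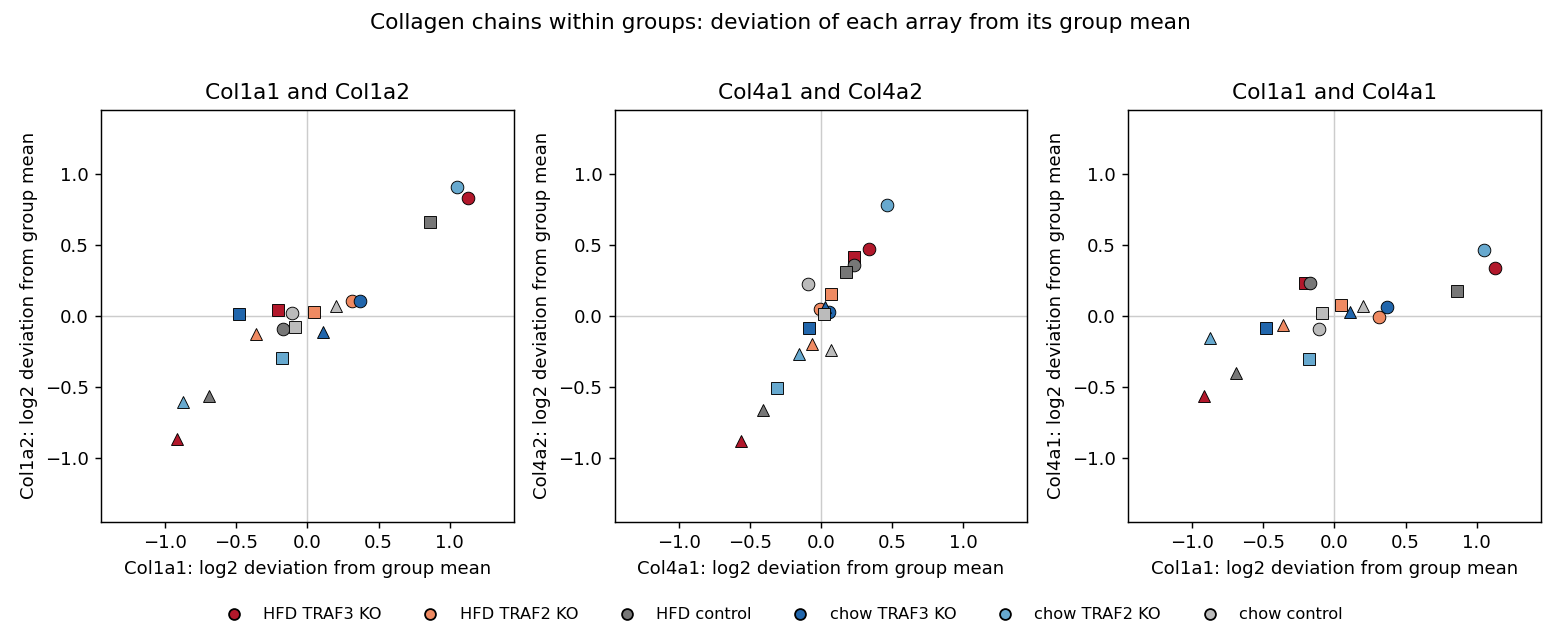
Deviation of each of 18 arrays from its group mean (log2) for Col1a1 and Col1a2, Col4a1 and Col4a2, and Col1a1 and Col4a1, coloured by group, with replicates 1 to 3 as circle, square and triangle. The points run along a rising line (r = 0.95, 0.95 and 0.79), with HFD TRAF3 knockout 3 at the low end and chow TRAF2 knockout 1 and HFD TRAF3 knockout 1 at the high end.

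Genes that process, bind or degrade collagen were followed in 7 lists with 83 genes. In chow TRAF3 knockout against chow control 17 of the 83 passed (16 higher and 1 lower), where 11% of all genes passed. Of 16 genes for hydroxylation, folding and secretion, 4 rose and 1 fell relative to chow control. P4ha1, the catalytic subunit of collagen prolyl 4-hydroxylase, measured 10.23, 10.48 and 10.16 in chow TRAF3 knockout and 9.03, 9.23 and 9.18 in chow control islets (1.14 ± 0.20, adjusted p = 0.0027). Serpinh1, the collagen chaperone HSP47, was 1.42 ± 0.31 higher (adjusted p = 0.00997) and P4ha2 0.89 ± 0.20 higher (adjusted p = 0.0116). Mia3, which loads procollagen into transport carriers, was -0.92 ± 0.17 relative to control (adjusted p = 0.00422). The median of the list was 0.16, and that of all genes -0.01.

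On HFD the same list gave 1 call in TRAF3 knockouts against control, P3h4 (-0.54 ± 0.11, adjusted p = 0.012), where 2.52% of all genes passed. In TRAF3 knockouts HFD gave 4 calls lower and 1 higher relative to chow, where 8.67% of all genes passed. P4ha1 measured 8.89, 8.66 and 8.49 on HFD (-1.61 ± 0.20, adjusted p = 0.000344), and Mia3 was the gene that was higher (0.95 ± 0.17, adjusted p = 0.00404). The dependence of the TRAF3 difference on diet passed for P4ha1 (-1.47 ± 0.28, adjusted p = 0.00984), P4ha2 (-1.15 ± 0.29, adjusted p = 0.029) and Mia3 (1.35 ± 0.24, adjusted p = 0.0085), where 5.80% of all genes passed.

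Enzymes that cleave collagen, and their inhibitors, gave 3 calls of 12 in chow TRAF3 knockout against chow control, all higher, where 11% of all genes passed. Mmp13, an interstitial collagenase, measured 6.22, 6.19 and 6.48 in chow TRAF3 knockout and 3.70, 4.02 and 3.97 in chow control islets (2.40 ± 0.28, adjusted p = 0.000318). The chow control values lay below the lowest array median of 4.80, so the size of this difference rests on dim signals. Timp1, an inhibitor of such enzymes, was 2.55 ± 0.58 higher (adjusted p = 0.0117) and Ctsk, a collagen-cleaving cathepsin, 0.92 ± 0.23 higher (adjusted p = 0.017). Ctsk measured 4.55, 4.69 and 4.64 in chow control islets, also below 4.80. On HFD, Timp4 was lower in TRAF3 knockout than in control islets (-1.06 ± 0.24, adjusted p = 0.0246), where 2.52% of all genes passed. Timp4 measured 4.17, 3.88 and 4.49 in HFD TRAF3 knockout islets, below 4.80, so the size of this difference too rests on dim signals. For HFD against chow, Mmp13 fell in TRAF3 knockouts (-2.0 ± 0.28, adjusted p = 0.000861), Timp4 rose in TRAF2 knockouts (1.43 ± 0.24, adjusted p = 0.00513) and Mmp9, a gelatinase, rose in controls (2.07 ± 0.41, adjusted p = 0.03). Of all genes 8.67%, 1.96% and 0.884% passed there, in the same order. Mmp13 in HFD TRAF3 knockout islets (4.19, 4.05 and 4.63) and Timp4 in chow TRAF2 knockout islets (3.71, 4.12 and 4.05) lay below 4.80 as well. Macrophages also make Ctsk, Mmp9 and Timp1, and 4 of 12 macrophage markers were higher in chow TRAF3 knockout than in chow control islets. The part of macrophages in these differences was not tested.

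Of 9 collagen receptors, Itga2 (1.59 ± 0.31, adjusted p = 0.00538) and Itgb1 (0.52 ± 0.13, adjusted p = 0.0183), the chains of integrin alpha 2 beta 1, were higher in chow TRAF3 knockout than in chow control islets, where 11% of all genes passed. In TRAF3 knockouts both were lower on HFD than on chow, Itga2 at -2.40 ± 0.31 (adjusted p = 0.000584) and Itgb1 at -0.61 ± 0.13 (adjusted p = 0.0099), where 8.67% of all genes passed. Itga1, which pairs with the same beta chain, rose on HFD in TRAF2 knockouts (0.90 ± 0.20, adjusted p = 0.026), where 1.96% of all genes passed. Of 11 genes for procollagen cleavage and crosslinking, Tll1 was the 1 called in chow TRAF3 knockout against chow control (0.78 ± 0.17, adjusted p = 0.0101). HFD against chow in TRAF3 knockouts gave Bmp1 higher (0.83 ± 0.24, adjusted p = 0.0425) and Tll1 lower (-0.60 ± 0.17, adjusted p = 0.0419), where 8.67% of all genes passed.

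Laminins, nidogens and other proteins of the basement membrane made up a list of 16. In chow TRAF3 knockout against chow control 11% of all genes passed. Of these 16 basement membrane partners, Lama5, a laminin chain (1.09 ± 0.27, adjusted p = 0.0179), and Agrn, the proteoglycan agrin (1.04 ± 0.25, adjusted p = 0.0142), were higher in chow TRAF3 knockout than in chow control islets, with a list median of 0.32. In TRAF2 knockouts HFD raised Lamb2, another laminin chain (1.26 ± 0.23, adjusted p = 0.0102), where 1.96% of all genes passed. Of 10 fibril partners, Tnc (tenascin C) was 2.15 ± 0.57 higher in chow TRAF3 knockout than in chow control islets (adjusted p = 0.0243). Thbs1 (thrombospondin 1) was 2.76 ± 0.62 higher in HFD TRAF3 knockout than in HFD control islets (adjusted p = 0.027), at 11.35, 9.85 and 9.34 against 7.87, 8.23 and 6.17. In that comparison 2.52% of all genes passed. Of 9 TGF-beta genes, Tgfb1 (1.38 ± 0.33, adjusted p = 0.0148), Ltbp1 (1.12 ± 0.19, adjusted p = 0.00292) and Ccn2 (1.08 ± 0.32, adjusted p = 0.0411) were higher in chow TRAF3 knockout than in chow control islets. Over the 83 genes, TRAF2 knockouts against control gave 0 calls with limma on HFD (4 at an unadjusted p under 0.05) and 0 on chow (2 at an unadjusted p under 0.05). Of all genes 0.252% passed and 5.71% had such a p on HFD, and 0.298% and 6.44% on chow.

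Stellate cells, fibroblasts and pericytes are the main makers of fibrillar collagen, and some of their markers moved with diet. In controls HFD raised 2 of 15 stromal markers, Acta2 (2.31 ± 0.39, adjusted p = 0.017) and Tagln (1.57 ± 0.27, adjusted p = 0.0168), and 6 of 12 macrophage markers, Mrc1 most (3.13 ± 0.43, adjusted p = 0.00338), where 0.884% of all genes passed. The stromal list mean was 6.56 to 7.47 in HFD control and 6.29 to 6.73 in chow control islets. In HFD TRAF3 knockout against HFD control, Acta2 (-2.58 ± 0.39, adjusted p = 0.00254) and Tagln (-1.43 ± 0.27, adjusted p = 0.00863) were lower, and so were 2 macrophage markers, where 2.52% of all genes passed. The other 13 stromal markers did not pass, among them Pdgfra (0.28 ± 0.56, adjusted p = 0.875), Thy1 (0.47 ± 0.39, adjusted p = 0.64) and Cygb (0.21 ± 0.51, adjusted p = 0.906), named after their values were seen. These named differences were positive, whereas the median of the whole stromal list was -0.23, so they do not stand for the list. The list mean was 6.23 to 7.19 in HFD TRAF3 knockout and 6.56 to 7.47 in HFD control islets, which overlapped. No fibrillar collagen passed in either comparison. Between HFD TRAF3 knockout and HFD control islets Col1a1 differed by 0.32 ± 0.51, which was -0.24 ± 0.49 without HFD TRAF3 knockout 1 and 0.78 ± 0.52 without HFD TRAF3 knockout 3. Col3a1 differed by 0.10 ± 0.56, which was -0.55 ± 0.52 without HFD TRAF3 knockout 1 and 0.75 ± 0.52 without HFD TRAF3 knockout 3. Neither passed in any of these fits (adjusted p between 0.468 and 0.881 for the 4 values with an array left out). In HFD TRAF3 knockouts the lists of endothelial and acinar markers spanned wide ranges over the 3 arrays (7.01 to 7.92 and 9.22 to 11.65).

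Markers of further cell types were read in the same way. In chow TRAF3 knockout against chow control, where 11% of all genes passed, 0 of 13 acinar markers passed with limma (1 at an unadjusted p under 0.05), and the list median was -0.31. Cpa1 (-0.07 ± 0.15) and Cel (-0.28 ± 0.24) were bright, from 12.19 to 13.51 over the 18 arrays. Dimmer markers are named after their values were seen. Amy2b measured 3.33, 3.78 and 5.08 in chow TRAF3 knockout and 6.08, 5.76 and 6.20 in chow control islets, without overlap (-1.95 ± 0.89, adjusted p = 0.191), and Rbpjl and Ctrc differed by -1.42 ± 0.76 (adjusted p = 0.282) and -1.21 ± 0.90 (adjusted p = 0.479). In the same comparison 0 of 8 lymphocyte markers passed with limma (0 at an unadjusted p under 0.05), with Cd3e at 0.85 ± 0.90 and Cd3d at 0.15 ± 0.40. Of 8 Schwann cell markers, Gfra3 (1.57 ± 0.36, adjusted p = 0.012) and Ngfr (1.08 ± 0.18, adjusted p = 0.00233) were higher, and both were also higher in HFD TRAF3, HFD TRAF2 and chow TRAF2 knockout islets than in their controls. In those comparisons 2.52%, 0.252% and 0.298% of all genes passed, in the same order. A further Schwann cell marker, Cdh19, was lower in HFD TRAF3 knockout than in HFD control islets (-0.99 ± 0.22, adjusted p = 0.0219). Among 15 stromal markers Rgs5, a pericyte gene, was lower in chow TRAF3 knockout than in chow control islets (-1.12 ± 0.28, adjusted p = 0.0199), with a list median of -0.03. Pdgfra, named after its values were seen, measured 6.84, 5.63 and 6.49 in chow TRAF3 knockout and 4.75, 4.20 and 5.02 in chow control islets, without overlap, and did not pass (1.66 ± 0.56, adjusted p = 0.0686), nor did Pdgfrb (0.88 ± 0.48, adjusted p = 0.284). Of the beta cell markers, Slc2a2, the glucose transporter GLUT2, was -2.97 ± 0.52 relative to chow control (adjusted p = 0.00313), and of 6 markers of other endocrine cells Ghrl (ghrelin) was -0.90 ± 0.23 (adjusted p = 0.0204).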

How the data were processed

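Expression was measured on 18 single-colour whole-transcript arrays, and the authors deposited log2 values for each probe set. Per the submitters' processing notes these come from RMA, and limma is named too, without versions; a genome build is not given in the sources used here. Per the labels' protocols, 250 ng of RNA was labelled with biotin. Of 41345 probe sets, 23521 had 1 gene symbol, 1814 several and 16010 none in the annotation used, and 22180 genes remained. For Col1a2, Col5a1 and Col6a1 the brightest of several probe sets was used. Values were used as deposited.

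Limma 3.58.1 (R 4.3.3, lmFit and eBayes) fitted 6 group means, with 12 residual degrees of freedom and a prior worth 3.69 more. All genes entered 12 two-sided contrasts with Benjamini-Hochberg adjustment over all genes. Differences carry limma's standard error (SE). A list mean is the mean log2 level of its genes on an array. On simulated data for chow TRAF3 knockout against chow control (22180 genes), 69 of 100 genes changed by 1 on the log2 scale and 99 of 100 changed by 2 were recovered, with 4 false calls. This recovery was not broken down by spread. Col3a1 (pooled SD 0.77) and Col1a1 (0.71) spread more than the median of all genes (0.22), so it cannot be read for them. For arrays the number of samples limits the precision.

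The members, lists, contrasts and rules were chosen with earlier results of these data known. Named with values are every collagen that passed, 8 fixed collagens, and up to 4 passing members per list. Markers of ductal, macrophage, stromal, endothelial, acinar, Schwann, lymphocyte, beta and other endocrine cells were the lists for cell makeup. Alternatives covered scaling, dim genes, probe sets, cell markers as covariates, the replicate number and arrays left out. TRAF3's own transcript was left out and is not reported here.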

Additional observations from a re-analysis of the deposited data

Results flagged for a closer look

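Col13a1 was picked out because it differed between the 2 knockouts on HFD by a test of the difference itself. It was 0.45 ± 0.10 higher in HFD TRAF3 knockout than in HFD TRAF2 knockout islets on the log2 scale (limma, adjusted p = 0.045), and all 3 arrays of the TRAF3 knockout lay above all 3 of the TRAF2 knockout. The adjusted p ran from 0.0264 to 0.212 over the 14 alternatives that could give a value for it, and from 0.0343 to 0.182 with single arrays left out.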

How the results depend on the processing

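The 4 calls rested on few arrays and on settings that were tried besides the main one, and where no reason is given the cause was not tested. The shares of all genes that passed in these other settings are not given here. A changed count therefore cannot be read as particular to collagens. Each array centred on its median, a further quantile normalization, limma's trend and robust options, only the arrays compared, and the replicate block (numbers shared by the labels, adjusted p = 0.0577) each left 0 collagen calls between HFD TRAF3 and HFD TRAF2 knockouts, where the main count was 1. The quantile step also gave 1 call for chow TRAF3 against chow TRAF2 knockout. The replicate numbers did not pair the samples (8 of 18 arrays were closest to an array of their own number), and the block changed no other call. With dim genes left out, 14 of the 44 members remained, without Col18a1, Col14a1 and Col13a1. This left 1 call for chow TRAF3 knockout against control and 0 for HFD against chow TRAF2 knockout and between the HFD knockouts. With the stromal list mean as a covariate there was 1 call for HFD TRAF3 knockout against control, 1 for both knockouts against control, 3 each for HFD against chow in TRAF3 knockouts, TRAF2 knockouts and controls, and 1 for chow TRAF3 against TRAF2 knockout. The endothelial mean gave 5, 2 and 1 for HFD against chow in TRAF3 knockouts, TRAF2 knockouts and controls, 1 for the dependence of the TRAF3 difference on diet, 1 for chow TRAF3 against TRAF2 knockout and 0 between the HFD knockouts, and took that dependence to 0.00 for Col4a2. The acinar mean gave 1 call for HFD TRAF3 knockout against control, 1 for both knockouts, 2 and 1 for HFD against chow in TRAF2 knockouts and controls, 1 between the chow knockouts and 2 between the HFD knockouts. The ductal mean, added after seeing the data, gave 0 for chow TRAF3 knockout against control, 2 for HFD against chow in TRAF2 knockouts and 2 between the HFD knockouts. The macrophage mean, also added after seeing the data, gave 6 for HFD TRAF3 knockout against control, 5, 5 and 7 for HFD against chow in TRAF3 knockouts, TRAF2 knockouts and controls, 7 for the dependence on diet, 1 between the chow and 6 between the HFD knockouts. It also turned differences that had not passed: Col1a1 -0.15 and Col3a1 -0.31 in chow TRAF2 knockout, Col1a1 -0.50 and Col4a2 -0.37 in chow TRAF3 knockout, Col1a1 -1.20, Col1a2 -0.85 and Col3a1 -1.4 for HFD against chow in controls, and Col4a2 1.44 for the dependence on diet. Without HFD TRAF3 knockout 3 and chow TRAF2 knockout 1, added after seeing the data, there were 6 and 1 calls for HFD against chow in TRAF3 knockouts and controls, 1 for the dependence on diet, 2 between the chow and 0 between the HFD knockouts. Leaving out single arrays gave 0 to 2 calls for chow TRAF3 knockout against control, HFD against chow in TRAF2 knockouts and the comparisons between knockouts, 0 to 1 for HFD against chow in TRAF3 knockouts and in controls and for the dependence on diet, and 0 to 0 for the others. For chow TRAF3 knockout against control the count was 0 without chow TRAF3 knockout 1 or 3 or chow control 1, and 1 without chow control 2. For HFD against chow in TRAF2 knockouts it was 0 without HFD TRAF2 knockout 2, and 2 without HFD TRAF3 knockout 3 or chow control 1. Between the chow knockouts it was 2 without chow TRAF2 knockout 1, and 1 without HFD control 3 or chow control 1. Without chow TRAF2 knockout 1 there was also 1 call for HFD against chow in TRAF3 knockouts and 1 for the dependence on diet, and without HFD control 3 there was 1 for HFD against chow in controls. Between the HFD knockouts it was 2 without HFD control 2 or 3, and 1 without HFD TRAF3 knockout 2, chow TRAF2 knockout 1 or chow control 1, and 0 without any other array. Every probe set, the mean of a gene's probe sets and a sex score changed none of the 4 calls.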
